A study of Mus musculus with 9 samples.

Results

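Glutamate and GABA are the main excitatory and inhibitory transmitters of the brain, and the genes of their receptor subunits were followed here through 9 RNA sequencing libraries of cultured mouse cells. The subunit genes were chosen by symbol, with earlier results of these data known. They are every AMPA (Gria), NMDA (Grin), kainate (Grik), delta (Grid) and metabotropic glutamate (Grm) receptor gene and every GABA-A (Gabr) and GABA-B (Gabbr) receptor gene in the deposited table. This gave 47 of 47729 genes, and 29 of the 47 passed the filter on low counts and were tested. Each of 3 groups held 3 cultures. NSC are primary neural stem cells of wild-type genotype (cultures 1, 3 and 5), and their source was the subventricular zone, a niche of adult brain stem cells. LTR are tumour cells derived from such stem cells and labelled lgT/Ras (cultures 1, 2 and 3), and NF1 are stem-cell-derived tumour cells labelled shp53, Nf1-/- and CDK4 (cultures 1, 2 and 3). Cells of all groups were kept in the same stem cell culture, for at most 10 passages, and the labels name no treatment. The tumour lines are called GSC1 and GSC2 in the series title. The labels tell neither which of them is LTR or NF1 nor whether the cultures of a tumour group were transformed separately. P-values thus measure the spread between cultures of a group, which may be technical. That spread was estimated over all 3 groups in 1 fit, so a library outside a comparison can change the p-values of that comparison.

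AMPA, NMDA and kainate receptors are ion channels that open when glutamate binds and carry fast excitation, and delta receptors are their relatives that act mainly through cerebellins, secreted proteins that bridge them to neurexins. Metabotropic glutamate receptors and GABA-B receptors signal through G proteins. GABA-A receptors are chloride channels assembled from several kinds of subunit, usually alpha, beta and gamma. Outside neurons, neural stem cells and glia also carry these receptors, and GABA and glutamate are known to act on the proliferation of cells in the subventricular zone.

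Total counts ran from 28600479 (LTR 2) to 57231024 (NSC 3), so a floor of 3 counts lay between 0.0541 and 0.114 CPM, which are counts scaled to a common library size by TMM. Intervals and floors cover counting error only. File headers place the NSC libraries on sequencing lane L001 and the tumour libraries on lane L007, so lane and the contrast of tumour cells with stem cells cannot be told apart. Trp53 mRNA was not lower in the group labelled shp53 (217, 151 and 221 CPM in NF1 1, 2 and 3) than in NSC (107, 114 and 101 CPM in NSC 1, 3 and 5), so LTR and NF1 stand throughout for the libraries labelled that way. Cdk4 mRNA measured 795, 393 and 1124 CPM in NF1 1, 2 and 3 against 334, 456 and 325 CPM in NSC 1, 3 and 5, so that NF1 2 lay inside the NSC range (log2 fold change 1.05 ± 0.34, adjusted p = 0.053, 0.000753 to 0.216 over the alternatives, and called in 5 of 21 of them). LTR, whose label does not name CDK4, measured 1015, 935 and 1020 CPM in LTR 1, 2 and 3. Its edgeR log2 fold change against NSC was 1.41 ± 0.35 (adjusted p = 0.0135, 0.000396 to 0.0549 over the alternatives). A raised Cdk4 level was thus not particular to NF1. Nf1 mRNA measured 59, 97.2 and 40.1 CPM in NF1 1, 2 and 3 against 109.6, 82.5 and 114 CPM in NSC 1, 3 and 5, and since the labels do not say which part of Nf1 is deleted, its level checks nothing. NF1 2 stood apart from the other NF1 libraries and NSC 3 from the other NSC libraries. Summed levels of 7 astrocyte markers were 1587 to 2283 CPM in NSC and 280.3 to 379.6 CPM in LTR, 276 and 305 in NF1 1 and 3, and 983 in NF1 2. Those of 5 oligodendrocyte precursor markers were 2552 to 3222, 113 to 208, 296 and 121, and 1184 CPM in the same order. Most of the astrocyte sums in LTR, NF1 1 and NF1 3 was Gja1, which averaged 264 CPM in NSC, 245 in LTR and 275 in NF1. In NF1 2 the largest parts were Aldh1l1 at 522 CPM and Gja1 at 386 CPM. Of the 7 astrocyte markers, 6 were lower in LTR than in NSC and 4 in NF1, and 0 were higher. Of 8 tested neural stem cell markers, 3 were lower and 1 was higher in LTR than in NSC, and 2 were lower and 0 higher in NF1. Nes and Sox2, both on the neural stem cell list, averaged 1481 and 338 CPM in NSC, 626 and 233 in LTR and 1178 and 291 in NF1. The NF1 mean of Nes rested mostly on NF1 2, at 675, 2433 and 426 CPM in NF1 1, 2 and 3. Nes in NSC 1, 3 and 5 was 1495, 1378 and 1571 CPM. Vim averaged 6995, 8489 and 10373 CPM in NSC, LTR and NF1, and Pax6 23.3, 42.7 and 36.3 CPM. Msi1 averaged 123, 19.2 and 21.7 CPM in the same order, and Prom1 54.8, 15.7 and 11.2 CPM, with Prom1 at 3.71, 25.3 and 4.74 CPM in NF1 1, 2 and 3. Fabp7, a fatty acid binding protein of radial glia, averaged 3152 CPM in NSC, 7.88 in LTR and 117 in NF1, and the glial glutamate transporter gene Slc1a3 averaged 771, 0.068 and 1.76 CPM. Both NF1 means rested mostly on NF1 2. In NF1 1, 2 and 3, Fabp7 was 4.96, 343 and 1.74 CPM and Slc1a3 0.174, 4.77 and 0.341 CPM. Of 13 neuronal markers, Map2 averaged 207 CPM in NSC, Stmn2 145 CPM and Rbfox3, which marks mature neurons, 0.012 CPM. The summed neuronal list ran from 371 to 489 CPM in the stem cells, from 273 to 695 CPM in LTR and from 545 to 970.4 CPM in NF1. Most of the tumour sums was the neurofilament gene Nefl, at 231, 615 and 372 CPM in LTR 1, 2 and 3 and 709, 915 and 508 CPM in NF1 1, 2 and 3 against 6.03, 40.7 and 3.89 CPM in NSC 1, 3 and 5. Of the 10 neuronal markers tested, 6 were lower and 1 was higher in LTR than in NSC, and 7 were lower and 1 was higher in NF1. Mural cell and fibroblast markers summed to 501 and 637 CPM in NSC 1 and 5 and to 19.5 in NSC 3. The part of these cell markers in the receptor results was not tested, and fewer cells of a type and less RNA per cell cannot be told apart in such bulk libraries.

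Summed receptor subunit RNA was far lower in LTR, NF1 1 and NF1 3 than in the stem cells, and NF1 2 lay between them. Of the 29 tested subunits, 22 were lower in LTR than in NSC (edgeR quasi-likelihood test, adjusted p under 0.05). Genes of the whole table were called lower in 20.9% of cases and higher in 14.9%. No subunit was called higher, with 0 at an unadjusted p under 0.05 and 0 by DESeq2 or limma-voom. The 7 that were not called were Grin1, Grin2a, Grin3b, Grik3, Grid1, Gabrg3 and Gabbr1. The median log2 fold change over the 29 was -5.31, or -4.79 with the genes at 0 in LTR held at their bounds, against -0.06 over all 15696 genes tested. Without LTR 3 the count fell to 14, and 8 subunits lost their calls, among them Grin2b, Grin2c, Grin2d, Grik4, Grik5, Gabra2 and Gabbr2. Lower calls over all genes fell as well, from 3288 of 15696 tested to 1963 of 16429 without LTR 3. The other 14 calls held under every alternative that tested them. When a GC trend was removed without re-centring, 63.4% of all LTR calls and 64.2% of all NF1 calls were higher, against 41.6% and 43.5% here. The median of all genes then lay at 0.36 in both comparisons, and 21 subunits were lower in LTR and 17 in NF1. The LTR calls for Grin2d and Grik5 and the NF1 call for Grik5 were lost there. Both totals thus include subunits that were not called in the reported fit.

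In NF1, 17 of the 29 subunits were lower than in NSC and none was called higher, with 0 at an unadjusted p under 0.05 and 0 by DESeq2 or limma-voom. The background was 13.1% of all genes lower and 10.1% higher. The median log2 fold change was -2.94 against 0.00 over all genes tested. The count depended on single libraries. It was 27 of 31 tested without NF1 2, where 24.5% of genes were called lower and 17.7% higher, and it was 8 without NF1 1 and 10 without NSC 1 or NSC 5. Lower calls over all genes moved too, from 2053 of 15696 tested to 1085 of 16367 without NF1 1. They were 1154 of 16077 without NSC 1 and 1199 of 16033 without NSC 5. Calls for Gria2, Grin2b, Grin3a, Grik2, Grm5, Gabra4 and Gabrg1 held under every alternative that tested them. Of the subunits lower in LTR, 16 were also lower in NF1, which is 72.7% of the LTR calls and 94.1% of the NF1 calls. Both comparisons share the NSC libraries. The overlap over all genes is not given here, so these shares are not read as particular to the subunits. Called in LTR and not in NF1 were Gria1, Gria3, Grin2d, Grik4, Gabra2 and Gabbr2, and called in NF1 and not in LTR was Grin1. None of these 7 was called by edgeR in the direct test of NF1 against LTR, and DESeq2 called Gria1.

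**Figure D1:**
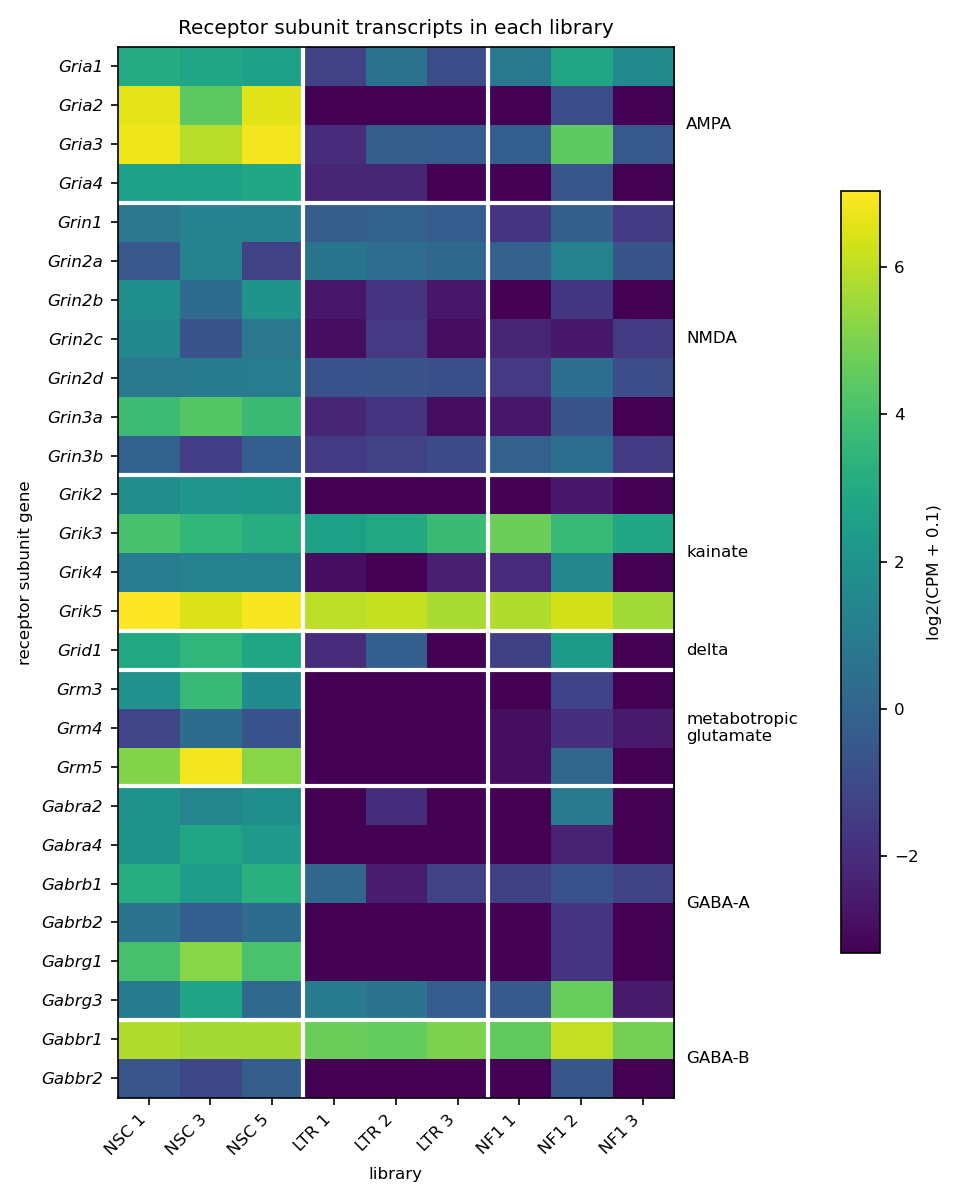
Level of 27 tested receptor subunits, as log2(CPM + 0.1), in the 9 libraries, with subunits in rows by receptor class and libraries in columns by group. Most rows are bright in the NSC columns and dark in LTR, NF1 1 and NF1 3, while Grik5 and Gabbr1 stay bright in all columns and NF1 2 is lighter than its 2 neighbours in most rows.

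Levels of different genes were compared per kilobase of exon. In NSC the summed CPM per kb were 24.2 ± 4.27 for kainate, 16.3 ± 5.86 for AMPA, 12.8 ± 1.9 for GABA-A, 8.41 ± 6.17 for metabotropic glutamate, 6.7 ± 0.392 for GABA-B, 2.43 ± 0.0842 for NMDA and 1.48 ± 0.41 for delta subunits (mean ± SD, n = 3). The single highest gene was Grik5 at 22.2 ± 4.19 CPM per kb, and other high genes were Gria3 (9.6 ± 3.01), Gabbr1 (6.62 ± 0.393), Grm5 (6.04 ± 4.43), Gria2 (4.59 ± 2.79), Gabrg1 (2.93 ± 1.45) and Grm3 (2.12 ± 1.74). Grik5 lay above Gria3 in every library, whereas each neighbouring pair of those named from Gria3 to Grm3 overlapped between libraries. The sum over all classes was 74.8, 70.4 and 71.9 CPM per kb in NSC 1, 3 and 5, 19.3, 18.5 and 17 in LTR 1, 2 and 3 and 17.8, 37.2 and 15.1 in NF1 1, 2 and 3. Neither tumour group overlapped NSC in this sum, and NF1 2 lay between. Of it, Grik5 made up 30.6% ± 5.06 in NSC, 65.5% ± 5.61 in LTR and 54.5% ± 10.4 in NF1.

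**Figure D2:**
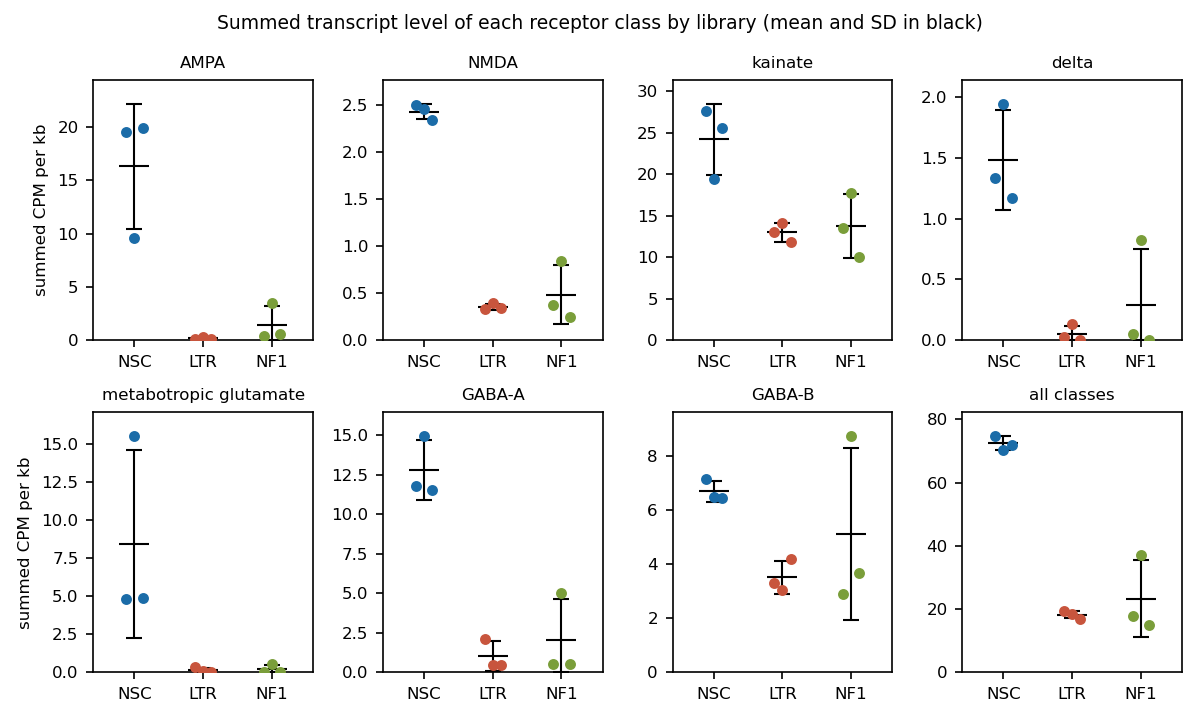
Summed CPM per kb of all subunits of each receptor class, 1 point per library, with the group mean and SD (n = 3) in black. In the AMPA panel LTR lies between 0.0829 and 0.319 against 9.58 to 20 in NSC, whereas in the kainate panel LTR averages 13 against 24.2 in NSC, and the highest NF1 point of each panel is NF1 2.

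In the account by class, an error after a log2 fold change is its SE, and a value in parentheses after a left-out library is the adjusted p without it. All 4 AMPA receptor subunits were lower in LTR, and 2 of the 4, Gria2 and Gria4, were lower in NF1. Gria2 (GRCm38 chromosome 3, 80681450 to 80802835, minus strand), whose edited form makes AMPA channels impermeable to calcium, measured 98.6, 21.4 and 94.1 CPM in NSC 1, 3 and 5. It had no count in any LTR library and measured 0, 0.448 and 0 CPM in NF1 1, 2 and 3. NSC 3 held less Gria2 than the other stem cell cultures, yet far more than any tumour library. Gria2 was thus at least 2222-fold lower in LTR, against a floor of 3 counts over the group (adjusted p = 0.00226). In NF1 it was lower as well (log2 fold change -8.88 ± 1.30, adjusted p = 0.00451), by -8.26 without NF1 1, and at least 1518-fold lower in NF1 1 and 3 alone, which had 0 counts. Gria3, the most abundant AMPA subunit of the stem cells, measured 107, 60.8 and 116 CPM in NSC 1, 3 and 5 and 0.148, 0.725 and 0.716 CPM in LTR 1, 2 and 3 (log2 fold change -7.49 ± 1.5, adjusted p = 0.00625). In NF1 it measured 0.753, 21.9 and 0.614 CPM in NF1 1, 2 and 3, so that NF1 2 lay between the other NF1 libraries and the stem cells. That difference did not pass (log2 fold change -3.61 ± 1.22, adjusted p = 0.0587, 3.81e-05 to 0.13 over the alternatives, and called in 7 of 21 of them), and it was -7.09 without NF1 2 (adjusted p = 7.96e-05). Gria1 measured 8.1, 6.7 and 5.93 CPM in NSC 1, 3 and 5 and 0.296, 1.37 and 0.448 CPM in LTR 1, 2 and 3, with no overlap (log2 fold change -3.30 ± 0.70, adjusted p = 0.00793; -4.08 without LTR 2). In NF1 it measured 1.71, 6.85 and 3.0 CPM in NF1 1, 2 and 3, where NF1 2 reached the stem cell range and no difference was called (log2 fold change -0.84 ± 0.64, adjusted p = 0.358). Gria4 measured 5.82, 5.87 and 7.37 CPM in NSC 1, 3 and 5. Tumour levels were 0.119, 0.114 and 0 CPM in LTR 1, 2 and 3 and 0, 0.576 and 0 CPM in NF1 1, 2 and 3. Gria4 was lower in LTR (log2 fold change -6.32 ± 1.46, adjusted p = 0.0108; -5.60 without LTR 3) and in NF1 (log2 fold change -5.03 ± 1.34, adjusted p = 0.026, 0.00046 to 0.0693 over the alternatives). The NF1 call for Gria4 was lost without NSC 1 (0.0659), NSC 5 (0.0693) or NF1 1 (0.0616), its value was -4.43 without NF1 1, and in NF1 1 and 3, both at 0 counts, Gria4 was at least 135-fold lower.

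Of 7 NMDA receptor subunits, 4 were lower in LTR and 4 in NF1, with Grin2b, Grin2c and Grin3a lower in both. Grin3a, a glycine-binding subunit that lowers the calcium permeability of the channel, was the most abundant NMDA subunit per kilobase in NSC at 1.26 ± 0.296 CPM per kb. It measured 13.6, 19.7 and 13.1 CPM in NSC 1, 3 and 5. Tumour levels were 0.119, 0.191 and 0.0299 CPM in LTR 1, 2 and 3 and 0.058, 0.544 and 0 CPM in NF1 1, 2 and 3. Neither tumour group came near the stem cell range (log2 fold change -7.09 ± 1.15, adjusted p = 0.00268 in LTR, -6.51 without LTR 3). In NF1 it was also lower (log2 fold change -6.24 ± 1.08, adjusted p = 0.00496), and 2 counts were left without NF1 2. Grin2b, a glutamate-binding subunit typical of the immature brain, measured 3.47, 1.14 and 4.0 CPM in NSC 1, 3 and 5. Tumour levels were 0.0593, 0.191 and 0.0597 CPM in LTR 1, 2 and 3 and 0, 0.224 and 0 CPM in NF1 1, 2 and 3. Grin2b was lower in LTR (log2 fold change -4.79 ± 1.14, adjusted p = 0.0121, 9.99e-05 to 0.0542 over the alternatives), by -5.39 without LTR 2, and the call was lost without LTR 3 (0.0542). It was also lower in NF1 (log2 fold change -5.20 ± 1.18, adjusted p = 0.0141; -4.60 without NF1 1), and at least 61-fold lower in NF1 1 and 3, which had 0 counts. Grin2c measured 2.73, 0.523 and 1.64 CPM in NSC 1, 3 and 5. Tumour levels were 0.0296, 0.229 and 0.0299 CPM in LTR 1, 2 and 3 and 0.116, 0.064 and 0.239 CPM in NF1 1, 2 and 3, so that NSC 3 was the lowest stem cell library and still lay above all tumour libraries. Grin2c was lower in LTR (log2 fold change -4.11 ± 0.96, adjusted p = 0.0112, 0.000546 to 0.0688 over the alternatives; -3.51 without NSC 1, 2 counts left in LTR without LTR 2, call lost without LTR 3 (0.0536)). Grin2c was lower in NF1 (log2 fold change -3.52 ± 0.91, adjusted p = 0.0238, 0.00287 to 0.111 over the alternatives; -4.11 without NF1 3 and -2.92 without NSC 1), and that call was lost without NSC 1 (0.0915), NSC 5 (0.0632) or NF1 1 (0.0857).

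Grin1, the subunit that every NMDA receptor needs, was low in all libraries. It measured 1.64, 2.29 and 2.33 CPM in NSC 1, 3 and 5. Tumour levels were 0.741, 0.839 and 0.716 CPM in LTR 1, 2 and 3 and 0.203, 0.768 and 0.239 CPM in NF1 1, 2 and 3. All 6 tumour libraries lay below NSC, and the difference passed in NF1 (log2 fold change -2.36 ± 0.57, adjusted p = 0.0179, 0.000304 to 0.0658 over the alternatives) and not in LTR (log2 fold change -1.45 ± 0.55, adjusted p = 0.0642, 0.0132 to 0.18 over the alternatives, and called in 5 of 20 of them). In NF1 it was -3.21 without NF1 2 (adjusted p = 0.00125) and the call was lost without NSC 5 (0.060), NF1 1 (0.0658) or NF1 3 (0.0514). In the annotation used, 13.5% of Grin1 exon bases are shared with Grin1os on the other strand, and the kit does not keep the strand. Grin2d, with 9.7% of exon bases shared with a gene on the other strand, measured 1.72, 1.75 and 1.98 CPM in NSC 1, 3 and 5. Tumour levels were 0.504, 0.534 and 0.478 CPM in LTR 1, 2 and 3 and 0.232, 1.28 and 0.444 CPM in NF1 1, 2 and 3. Grin2d was lower in LTR (log2 fold change -1.84 ± 0.60, adjusted p = 0.0398, 0.00537 to 0.122 over the alternatives), a call lost without any 1 of the 6 NSC and LTR libraries (adjusted p 0.0699 to 0.122), and did not pass in NF1 (log2 fold change -1.48 ± 0.59, adjusted p = 0.0998, 0.00514 to 0.239 over the alternatives, and called in 3 of 20 of them; -2.42 without NF1 2 (adjusted p = 0.00514)). Grin2a and Grin3b overlapped between the groups. Grin2a measured 0.609, 2.35 and 0.295 CPM in NSC 1, 3 and 5. Tumour levels were 1.54, 1.18 and 1.04 CPM in LTR 1, 2 and 3 and 0.811, 2.21 and 0.546 CPM in NF1 1, 2 and 3, with NSC 3 and NF1 2 as the highest libraries. Its differences did not pass in LTR (log2 fold change 0.20 ± 0.78, adjusted p = 0.853, 0.0339 to 0.983 over the alternatives, and called in 1 of 20 of them) or NF1 (log2 fold change 0.12 ± 0.78, adjusted p = 0.922). Grin3b, of whose exon bases 32.1% are shared with Tmem259 on the other strand, measured 0.821, 0.271 and 0.751 CPM in NSC 1, 3 and 5. Tumour levels were 0.237, 0.305 and 0.418 CPM in LTR 1, 2 and 3 and 0.811, 1.25 and 0.239 CPM in NF1 1, 2 and 3. It did not pass in LTR (log2 fold change -0.92 ± 0.69, adjusted p = 0.315) or NF1 (log2 fold change 0.33 ± 0.66, adjusted p = 0.744).

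Of 4 tested kainate receptor subunits 3 were lower in LTR and 2 in NF1, but Grik5 and Grik3 kept much of their level, and the class sum was 13 ± 1.17 CPM per kb in LTR and 13.8 ± 3.85 in NF1 against 24.2 ± 4.27 in NSC. Grik5 (GRCm38 chromosome 7, 25009849 to 25072346, minus strand), a subunit with high affinity for kainate that needs a partner from Grik1, Grik2 or Grik3 to form a channel, measured 131, 90 and 123 CPM in NSC 1, 3 and 5. Tumour levels were 64.3, 68.6 and 53.2 CPM in LTR 1, 2 and 3 and 54.8, 81.7 and 47.7 CPM in NF1 1, 2 and 3. Every tumour library was below every stem cell library, and the fall was less than 2-fold in LTR (log2 fold change -0.89 ± 0.25, adjusted p = 0.0213, 0.00189 to 0.155 over the alternatives) and in NF1 (log2 fold change -0.90 ± 0.25, adjusted p = 0.0285, 0.00124 to 0.105 over the alternatives). The LTR call was lost without NSC 1 (0.0792), NSC 5 (0.0695), LTR 1 (0.0533) or LTR 3 (0.102), and the NF1 call without NSC 1 (0.105), NSC 5 (0.093), NF1 1 (0.101) or NF1 3 (0.0621). Grik3 measured 16.1, 11.6 and 8.61 CPM in NSC 1, 3 and 5. Tumour levels were 5.78, 7.48 and 13.1 CPM in LTR 1, 2 and 3 and 25.9, 12.4 and 7.24 CPM in NF1 1, 2 and 3. The 3 groups overlapped, NF1 1 was the highest library, and no difference passed in LTR (log2 fold change -0.46 ± 0.50, adjusted p = 0.489) or NF1 (log2 fold change 0.33 ± 0.50, adjusted p = 0.654). Grik2, another channel-forming subunit, measured 3.34, 4.1 and 4.37 CPM in NSC 1, 3 and 5, had no count in any LTR library and had 2 counts in NF1 2 and none in NF1 1 and 3. Grik2 was at least 123-fold lower in LTR (adjusted p = 0.0017). In NF1 it showed a count ratio of 188, exact 95% interval 51.8 to 1556 (adjusted p = 0.00309), and at least 83.7-fold in NF1 1 and 3 alone. Grik4, the relative of Grik5, measured 2.01, 2.33 and 2.25 CPM in NSC 1, 3 and 5. Tumour levels were 0.0296, 0 and 0.0896 CPM in LTR 1, 2 and 3 and 0.145, 2.66 and 0 CPM in NF1 1, 2 and 3. NF1 2 lay above all stem cell libraries for it, while NF1 1 and 3 lay with LTR. Grik4 was lower in LTR (log2 fold change -5.60 ± 1.65, adjusted p = 0.0268, 0.000767 to 0.0824 over the alternatives), with 1 count left in LTR without LTR 3 and -5.01 without LTR 2, and the call was lost without NSC 1 (0.0568), NSC 5 (0.0575), LTR 1 (0.0815), LTR 2 (0.0824) or LTR 3 (0.0602). In NF1 it did not pass (log2 fold change -1.23 ± 1.25, adjusted p = 0.495, 0.00477 to 0.744 over the alternatives, and called in 2 of 20 of them; -4.78 without NF1 2 (adjusted p = 0.00507)). Per kilobase, Grik5 exceeded Grik3 in every group, at 12 ± 1.54 against 0.978 ± 0.425 CPM per kb in LTR and 11.9 ± 3.47 against 1.69 ± 1.08 in NF1.

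Grid1, a delta receptor, was low in the tumour cells except in NF1 2. Grid1 measured 7.68, 11.3 and 6.65 CPM in NSC 1, 3 and 5. Tumour levels were 0.148, 0.763 and 0 CPM in LTR 1, 2 and 3 and 0.29, 4.87 and 0 CPM in NF1 1, 2 and 3. The groups did not overlap, but the spread within the tumour groups was wide and the difference passed neither in LTR (log2 fold change -4.85 ± 1.72, adjusted p = 0.0525, 0.00576 to 0.137 over the alternatives, and called in 10 of 20 of them) nor in NF1 (log2 fold change -2.31 ± 1.5, adjusted p = 0.284, 0.00933 to 0.487 over the alternatives, and called in 4 of 20 of them; -5.78 without NF1 2 (adjusted p = 0.00933)).

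All 3 tested metabotropic glutamate receptors were lower in both tumour groups, and no count of Grm3, Grm4 or Grm5 was found in LTR. Grm5, which couples to phospholipase C, measured 34.7, 114 and 36.7 CPM in NSC 1, 3 and 5 and 0.029, 0.96 and 0 CPM in NF1 1, 2 and 3. NSC 3 held 3.2 times the mean of NSC 1 and 5. Grm5 was at least 1927-fold lower in LTR (adjusted p = 0.00337), or 1112-fold without NSC 3. In NF1 it was lower too (log2 fold change -7.54 ± 1.34, adjusted p = 0.0087; -6.71 without NSC 3), and without NF1 2 a single count was left. Grm3, a receptor of the group that inhibits adenylyl cyclase and is prominent on astrocytes, measured 3.71, 12.6 and 3.08 CPM in NSC 1, 3 and 5 and 0, 0.32 and 0 CPM in NF1 1, 2 and 3, again with NSC 3 as the highest library. Grm3 was at least 201-fold lower in LTR (adjusted p = 0.00742) and 106-fold without NSC 3. Grm3 was lower in NF1 (log2 fold change -5.88 ± 1.39, adjusted p = 0.0233, 0.00103 to 0.0608 over the alternatives) and at least 137-fold lower in NF1 1 and 3, which had 0 counts. The NF1 call for Grm3 was lost without NSC 1 (0.0526) or NF1 1 (0.0608), with a value of -5.28 without NF1 1 and -4.90 without NSC 3. Grm4, a presynaptic receptor in neurons, was low, at 0.344, 1.16 and 0.51 CPM in NSC 1, 3 and 5 and 0.029, 0.16 and 0.0683 CPM in NF1 1, 2 and 3. Grm4 was at least 20.9-fold lower in LTR (adjusted p = 0.00549; 13.3-fold without NSC 3). The NF1 difference (log2 fold change -2.94 ± 0.82, adjusted p = 0.0403, 0.0195 to 0.131 over the alternatives; 3 counts left without NF1 2; -2.20 without NSC 3) was lost without NSC 1 (0.0698), NSC 3 (0.106), NSC 5 (0.0889), LTR 1 (0.0508), LTR 3 (0.0553), NF1 1 (0.131) or NF1 3 (0.116). The other 5 metabotropic genes did not pass the filter. Among them Grm7, a presynaptic receptor, had 61 counts in LTR 1 and at most 16 in any other library, and it was called higher in LTR in 3 of the 8 alternatives that tested it (adjusted p 0.0386 to 0.14).

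Of 19 GABA-A receptor genes, 7 passed the filter, and 6 of these were lower in LTR and 5 in NF1. Gabrg1 (GRCm38 chromosome 5, 70751047 to 70842617, minus strand), one of the gamma subunits that shape the response to benzodiazepines, measured 16.3, 36.2 and 16.7 CPM in NSC 1, 3 and 5, had no count in LTR and measured 0, 0.192 and 0 CPM in NF1 1, 2 and 3. Gabrg1 was at least 718-fold lower in LTR (adjusted p = 0.00173; 513-fold without NSC 3). Gabrg1 was lower in NF1 (log2 fold change -8.43 ± 1.13, adjusted p = 0.0034; -7.82 without NF1 1), and at least 490.3-fold in NF1 1 and 3, which had 0 counts. Gabrb1 measured 8.68, 5.22 and 9.44 CPM in NSC 1, 3 and 5. Tumour levels were 0.978, 0.0763 and 0.299 CPM in LTR 1, 2 and 3 and 0.29, 0.512 and 0.341 CPM in NF1 1, 2 and 3. Gabrb1 was lower in LTR (log2 fold change -4.08 ± 0.77, adjusted p = 0.00499; -5.30 without LTR 1, -3.48 without LTR 2) and in NF1 (log2 fold change -4.34 ± 0.79, adjusted p = 0.00589, 8.17e-09 to 0.0517 over the alternatives).

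Of the alpha subunits, which bind GABA together with the beta subunits, Gabra4 and Gabra2 passed the filter. Gabra4 measured 4.0, 6.62 and 4.56 CPM in NSC 1, 3 and 5, had no count in LTR and had 3 counts in NF1 2 only. Gabra4 was at least 158-fold lower in LTR (adjusted p = 0.0021). In NF1 it was lower with a count ratio of 167, exact 95% interval 56.9 to 812 (adjusted p = 0.00427), and at least 108-fold in NF1 1 and 3. Gabra2 measured 3.86, 2.54 and 3.51 CPM in NSC 1, 3 and 5. Tumour levels were 0, 0.153 and 0 CPM in LTR 1, 2 and 3 and 0, 1.66 and 0 CPM in NF1 1, 2 and 3. LTR 2 was the only LTR library with counts and NF1 2 the only such NF1 library. Gabra2 was lower in LTR (log2 fold change -6.08 ± 1.92, adjusted p = 0.035, 0.00119 to 0.107 over the alternatives). The value was -5.46 without LTR 1 and -5.34 without LTR 3, and without LTR 2 no LTR count was left. This call was lost without NSC 1 (0.0776), NSC 5 (0.0728), LTR 1 (0.0999), LTR 2 (0.0583) or LTR 3 (0.107). DESeq2 gave no adjusted p for Gabra2 in LTR. In NF1 it did not pass (log2 fold change -2.57 ± 1.51, adjusted p = 0.238, 0.00173 to 0.478 over the alternatives, and called in 4 of 20 of them), while in NF1 1 and 3 it was at least 70.3-fold lower. Gabrb2 measured 1.43, 0.758 and 1.15 CPM in NSC 1, 3 and 5, had no count in LTR and measured 0, 0.192 and 0 CPM in NF1 1, 2 and 3. Gabrb2 was at least 34.7-fold lower in LTR (adjusted p = 0.0102) and lower in NF1 (log2 fold change -4.05 ± 1.15, adjusted p = 0.0417, 0.00303 to 0.121 over the alternatives; -3.46 without NF1 1). The NF1 call for Gabrb2 was lost without NSC 1 (0.121), NSC 3 (0.0564), NSC 5 (0.107), LTR 1 (0.0513), LTR 3 (0.0531), NF1 1 (0.106) or NF1 3 (0.0895), and in NF1 1 and 3, at 0 counts, it was at least 23.7-fold lower. Gabrg3 was the exception, at 1.83, 6.52 and 1.05 CPM in NSC 1, 3 and 5. Tumour levels were 1.84, 1.45 and 0.716 CPM in LTR 1, 2 and 3 and 0.638, 24.4 and 0.0683 CPM in NF1 1, 2 and 3. NF1 2 held the highest level of all libraries, 69.2 times the mean of NF1 1 and 3, and no group difference passed in LTR (log2 fold change -1.23 ± 1.49, adjusted p = 0.538) or NF1 (log2 fold change 1.41 ± 1.47, adjusted p = 0.509, 0.0386 to 0.729 over the alternatives, and called in 1 of 20 of them; -3.11 without NF1 2 (adjusted p = 0.0386)).

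GABA-B receptors need both of their subunits, and 1 of the 2, Gabbr2, was lower in LTR and neither in NF1. Gabbr1, which binds GABA, measured 54.9, 50 and 49.3 CPM in NSC 1, 3 and 5. Tumour levels were 25.7, 23.7 and 32.6 CPM in LTR 1, 2 and 3 and 22.7, 67.3 and 28.7 CPM in NF1 1, 2 and 3. LTR lay below NSC without overlap and NF1 2 lay above NSC. The difference did not pass in LTR (log2 fold change -0.91 ± 0.37, adjusted p = 0.0797, 0.00405 to 0.247 over the alternatives, and called in 4 of 21 of them; -0.90 with adjusted p = 0.00405 without NF1 2) or in NF1 (log2 fold change -0.38 ± 0.37, adjusted p = 0.473, 0.00596 to 0.911 over the alternatives, and called in 2 of 21 of them; -0.99 without NF1 2 (adjusted p = 0.00596)). Gabbr2, which couples to the G protein and brings the receptor to the cell surface, measured 0.556, 0.361 and 0.724 CPM in NSC 1, 3 and 5, had no count in any LTR library and measured 0, 0.576 and 0 CPM in NF1 1, 2 and 3. Gabbr2 was at least 17-fold lower in LTR (adjusted p = 0.0424, 0.00301 to 0.0945 over the alternatives), a call lost without NSC 1 (0.0877), NSC 3 (0.0608), NSC 5 (0.0928), LTR 1 (0.0894), LTR 2 (0.0872) or LTR 3 (0.0945). In NF1 it did not pass (log2 fold change -1.49 ± 1.32, adjusted p = 0.44, 0.0072 to 0.673 over the alternatives, and called in 3 of 20 of them), with NF1 2 inside the NSC range and 0 counts in NF1 1 and 3, where it was at least 11.6-fold lower.

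**Figure D3:**
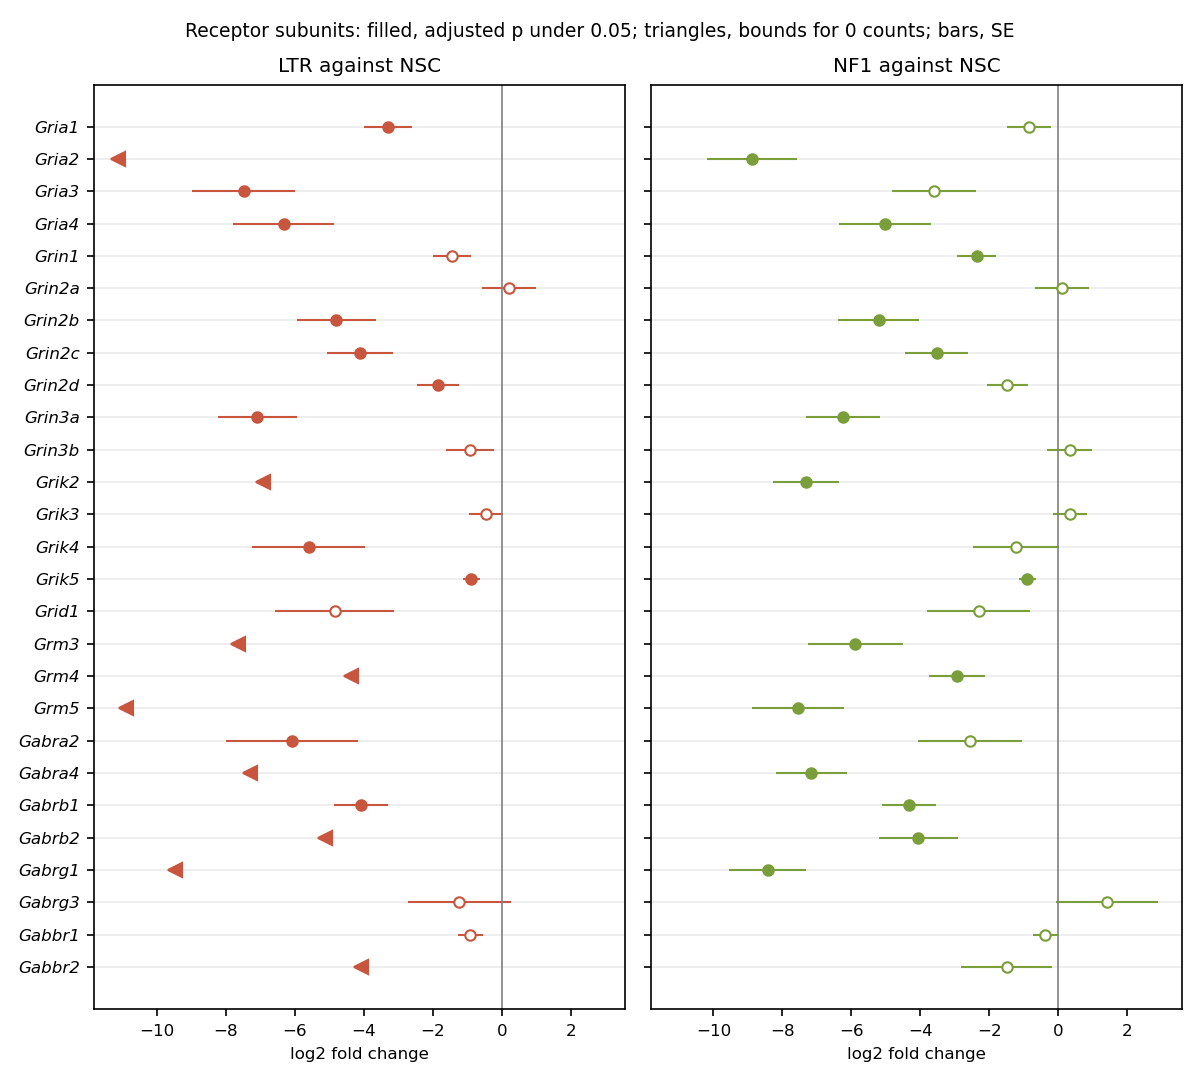
Log2 fold change of 27 tested subunits in LTR (left) and NF1 (right) against NSC, with SE as bars; filled symbols passed at an adjusted p under 0.05, and triangles are bounds for subunits with 0 counts in the tumour group. In the left panel 20 of 27 symbols are filled, all of them left of 0, with Gria2 (at least 2222-fold) and Grm5 (at least 1927-fold) farthest out; in the right panel 15 are filled.

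The NF1 cultures were not alike. NF1 2 was above both other NF1 libraries for 27 of the 29 tested subunits, the exceptions being Grik3 and Grin2c, which is 93.1% of them against 48.4% of all tested genes. Relative to the stem cells, NF1 2 lay below every NSC library for 21 subunits, inside the NSC range for 4 and above it for 4 (Grik4, Grin3b, Gabrg3 and Gabbr1). Its level was 0.628% of the NSC mean for Gria2, 1.55% for Grm5, 23.1% for Gria3, 50.3% for Gabra2 and 57% for Grid1. In NF1 1 and 3, 11 of the 29 had 0 counts, and 9 had 0 counts in all LTR libraries. The shares of all genes beside these counts are not given here. Zero in LTR and in NF1 1 and 3 alike were 7 subunits, 24.1% of those tested, against 0.841% of all tested genes. These 7 were Gria2, Grik2, Grm3, Gabra4, Gabrb2, Gabrg1 and Gabbr2. A gene at 0 in those libraries could pass the filter only with counts in NSC. Being tested and lying lower there are thus tied, for these subunits and for all genes. NF1 2 also held the highest sum of the NF1 libraries in each of the 8 marker lists, and the part of these in its receptor levels was not tested. The ependymal sum was 9.86 CPM in NF1 2 against 2.75 and 2.53 in NF1 1 and 3. The endothelial sum was 6.69 against 2.14 and 1.19 CPM, and the neural stem cell sum 13155 against 11785 and 11152 CPM.

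**Figure D4:**
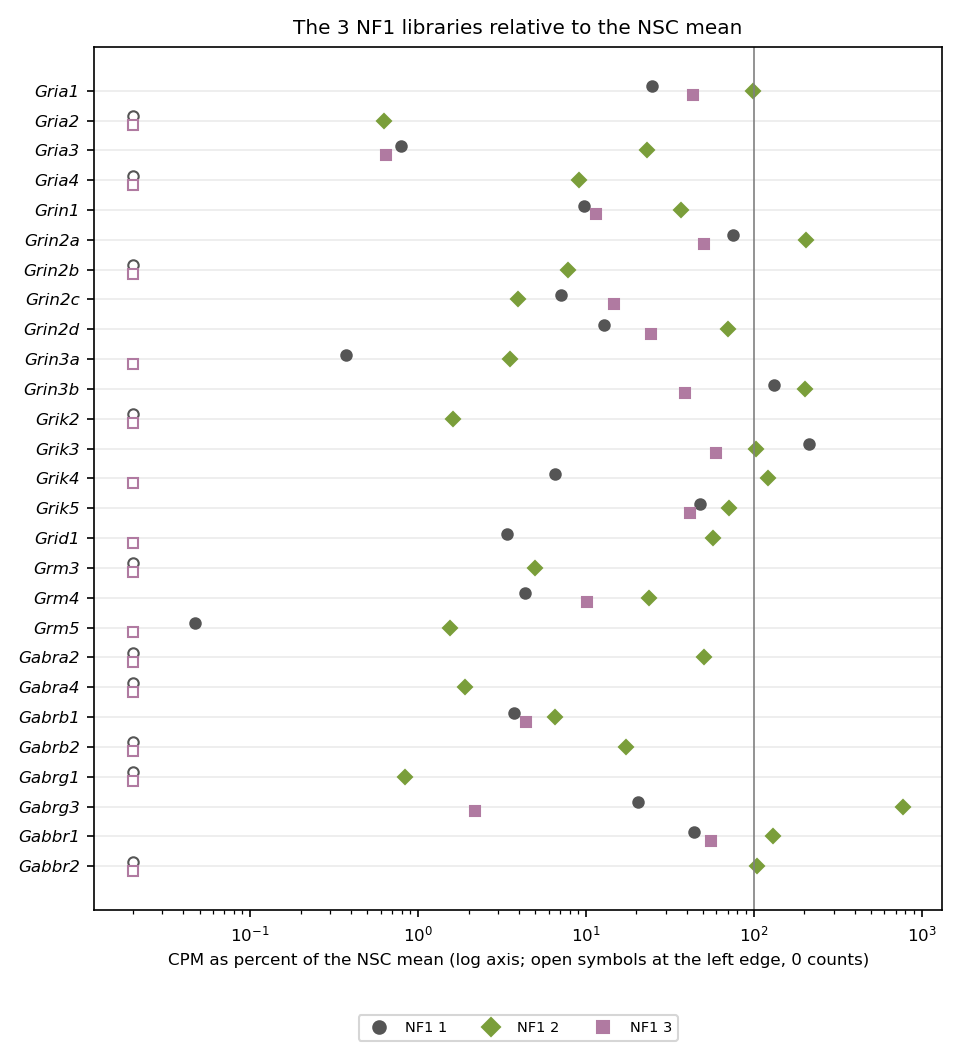
Level of 27 tested subunits in NF1 1 (circles), NF1 2 (diamonds) and NF1 3 (squares) as percent of the NSC mean on a log axis; open symbols at the left edge mark 0 counts, and the grey line marks the NSC mean. NF1 2 lies right of both other libraries in 25 of the 27 rows, from 0.628% of the NSC mean for Gria2 to 781% for Gabrg3.

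Between NF1 and LTR, 0 of 29 subunits passed in either direction by edgeR, and 0% of all genes passed as lower and 0% as higher. Of all genes, 440 lower and 1156 higher had an unadjusted p under 0.05, and DESeq2 called 133 lower and 195 higher and limma-voom 1 lower and 0 higher. At an unadjusted p under 0.05, 6 subunits were higher in NF1 and 0 lower. DESeq2 called 1 higher, Gria1, and limma-voom 0. Gria1 was also the only subunit with counts in both groups whose libraries did not overlap (log2 fold change 2.46 ± 0.69, adjusted p = 0.338, 0.0182 to 0.755 over the alternatives, and called in 1 of 20 of them). Without NF1 2, 0.165% of genes were lower and 0.0428% higher, and 0 subunits passed.

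Many GABA-A genes lie in clusters, and the rule did not use position. On chromosome 5 (GRCm38, 70751047 to 72149037) Gabrg1, Gabra2, Gabra4 and Gabrb1 follow each other over 1.4 Mb, and all 4 passed the filter, with 4 lower in LTR and 3 in NF1. Gabra4 and Gabrb1 are read in opposite directions from overlapping ends and share 46 exon bases, so reads there are uncertain. The X chromosome genes Gabre, Gabra3 and Gabrq did not pass the filter.

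Because many subunits moved together, start regions are set side by side for subunits with no LTR count and subunits still abundant in LTR. Of the abundant ones, Grik5 was called lower in LTR, and Gabbr1 lay below NSC without being called. Shown are the 100 bases before the annotated start (RefSeq, GRCm38.p6, 5′ to 3′ on the gene's strand, CG dinucleotides in capitals) of Gria2 and Gabrg1, which had no LTR count, and of Grik5 and Gabbr1, the most abundant subunits per kilobase in LTR.
Gria2, chr3:80802836-80802935, minus strand: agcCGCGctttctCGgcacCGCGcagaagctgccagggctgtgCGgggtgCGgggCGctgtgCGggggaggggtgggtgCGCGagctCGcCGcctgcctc
Gabrg1, chr5:70842618-70842717, minus strand: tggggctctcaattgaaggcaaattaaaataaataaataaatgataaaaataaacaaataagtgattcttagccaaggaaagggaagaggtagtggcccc
Grik5, chr7:25072370-25072469, minus strand: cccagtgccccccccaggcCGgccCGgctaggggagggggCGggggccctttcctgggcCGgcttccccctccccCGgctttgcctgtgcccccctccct
Gabbr1, chr17:37045866-37045965, plus strand: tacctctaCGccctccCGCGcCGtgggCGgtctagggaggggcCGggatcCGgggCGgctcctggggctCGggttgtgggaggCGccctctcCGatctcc
These windows hold 13, 0, 5 and 11 CG dinucleotides in the order given. Over 300 bases, 250 before and 50 after the start, Gria2 has 26, Gabrg1 3, Grik5 10 and Gabbr1 18, and 16.9%, 76.7%, 43.5% and 29.7% of all 32851 windows in the table have at least as many. A window was found for 32 of the 47 subunit genes. The highest CG count per gene had a median of 19.5 (range 3 to 46) in the 14 that were lower in LTR and 18 (range 3 to 50) in the 5 that were tested and not called. The ranges overlap, and DNA methylation was not measured.

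The proteins that work with these receptors were followed through 57 partner genes, of which 42 were tested. In LTR 22 were lower and 2 higher, and in NF1 13 were lower and 2 higher, against the same background of 20.9% and 14.9%, and 13.1% and 10.1%. The NF1 count of lower genes was 26 without NF1 2 and 7 without NF1 1, and that of higher genes was 1 without any 1 of the libraries other than NF1 2. Beside these, 24.5% of all genes were lower in NF1 without NF1 2, and 1085 of 16367 without NF1 1. The median log2 fold change was -1.63 in LTR and -0.96 in NF1. Of the adhesion partners that line up the synaptic membranes, 5 of 5 were lower in LTR and 4 of 5 in NF1. Nlgn3, a neuroligin, measured 12.5 ± 1.58 CPM in NSC, 0.075 ± 0.0147 in LTR and 0.152 ± 0.181 in NF1 (log2 fold change -7.31 ± 0.96, adjusted p = 0.00133; log2 fold change -6.34 ± 0.90, adjusted p = 0.00236). Among 15 tested excitatory scaffolds, 6 were lower and 1 higher in LTR, and 3 were lower and 1 higher in NF1.

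Homer2, a scaffold that binds Grm5, measured 8.9 ± 1.98 CPM in NSC, 0.00995 ± 0.0172 in LTR and 0.219 ± 0.198 in NF1 (a single LTR count, count ratio 859, exact 95% interval 154 to 33969, adjusted p = 0.00159; in NF1 log2 fold change -5.34 ± 0.97, adjusted p = 0.0059). Dlg3, a scaffold of NMDA receptors, rose, at 38.7 ± 7.06 CPM in NSC, 81.3 ± 13.5 in LTR and 84.2 ± 11.9 in NF1 (log2 fold change 1.07 ± 0.21, adjusted p = 0.00591; log2 fold change 1.12 ± 0.21, adjusted p = 0.00687). Glrb, the beta subunit of the related glycine receptor, measured 20.2 ± 0.834 CPM in NSC, 0.841 ± 0.0898 in LTR and 1.14 ± 1.04 in NF1 (log2 fold change -4.58 ± 0.62, adjusted p = 0.00147; log2 fold change -4.15 ± 0.60, adjusted p = 0.00261). Gabarap, which binds GABA-A gamma subunits and acts in autophagy, was the most abundant partner gene that did not pass, at 208 ± 7.08 CPM in NSC, 163 ± 36.7 in LTR and 238 ± 65.2 in NF1 (log2 fold change -0.36 ± 0.24, adjusted p = 0.263; log2 fold change 0.19 ± 0.24, adjusted p = 0.583). Of AMPA auxiliary subunits 3 of 9 were lower in LTR and 1 of 9 in NF1, of inhibitory scaffolds 3 of 7 and 1 of 7, of GABA-B auxiliary subunits 2 of 2 and 1 of 2, and of kainate auxiliary subunits 2 of 2 in both. These were Neto1, at least 43.4-fold lower in LTR and 44.1-fold in NF1, with no count in any tumour library, and Neto2, at 235 ± 79.1 CPM in NSC, 106 ± 11.7 in LTR and 108 ± 18.6 in NF1. Cbln1, the cerebellin that binds delta receptors, moved the other way, being the 1 tested delta ligand. It measured 0.238, 0.162 and 0 CPM in NSC 1, 3 and 5, 27.1, 18 and 9.7 CPM in LTR 1, 2 and 3 and 1.54, 0.32 and 1.19 CPM in NF1 1, 2 and 3, and it was higher in LTR (log2 fold change 7.04 ± 1.01, adjusted p = 0.00175) and in NF1 (log2 fold change 2.88 ± 0.89, adjusted p = 0.0452), a call lost without any 1 library other than NF1 2 and by limma-voom. Between NF1 and LTR no partner gene passed by edgeR, with 1 lower and 10 higher in NF1 at an unadjusted p under 0.05. DESeq2 called Cbln1 lower and 2 higher, among them Shisa9, and limma-voom called 0. Among the 4 with the smallest adjusted p were Cbln1 (log2 fold change -4.16 ± 0.86, adjusted p = 0.215), Shisa9 (a single LTR count, count ratio 195, exact 95% interval 34.5 to 7727, adjusted p = 0.384, 196 of the NF1 counts in NF1 2) and Nrxn2 (log2 fold change 1.95 ± 0.64, adjusted p = 0.384). Without NF1 2, Shisa6, an AMPA auxiliary subunit named after its values were seen, was called lower in NF1 than in LTR (-3.25, adjusted p = 0.0473, 0.0257 to 1.0 over the alternatives).

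**Figure D5:**
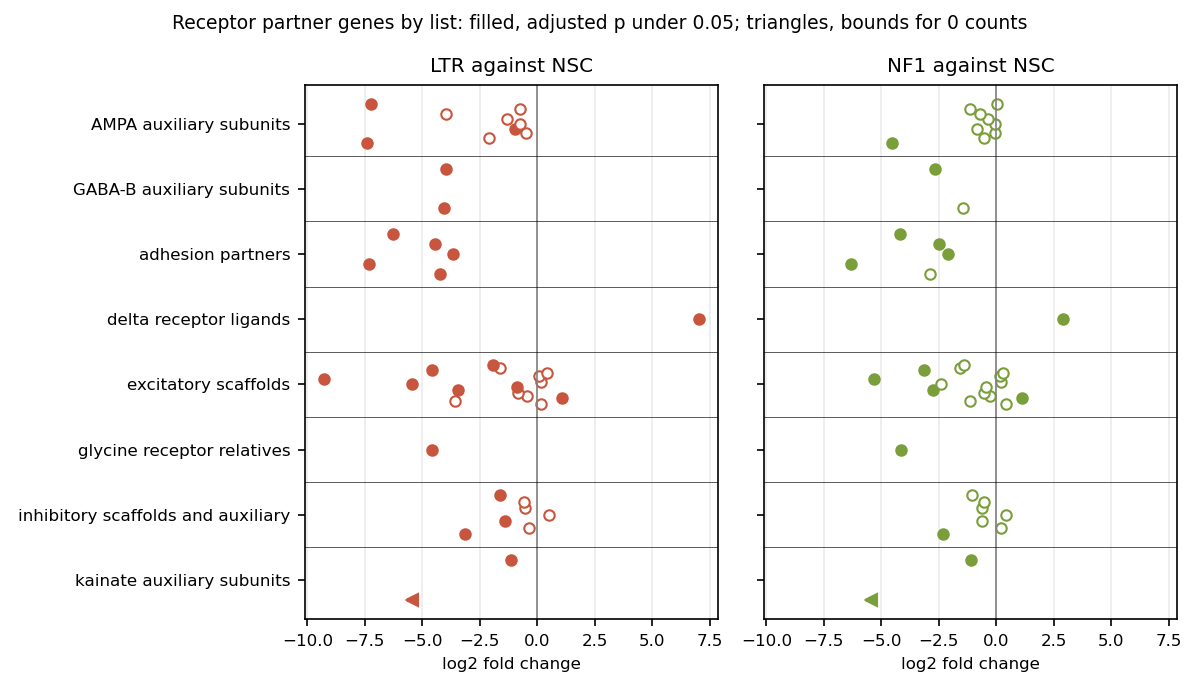
Log2 fold change of the 42 tested partner genes in LTR (left) and NF1 (right) against NSC, 1 symbol per gene in rows by list. Filled symbols passed at an adjusted p under 0.05, and triangles are bounds for 0 counts in the tumour group. Adhesion partners lie left of 0, several scaffolds and AMPA auxiliary subunits lie near it, and the 2 filled symbols to the right are Cbln1 and Dlg3.

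The 18 subunit genes that did not pass the filter had at most 58 counts in any library, apart from Grm7 with 61 in LTR 1. Gabra6, Gabrp and Gabrr3 had 0 counts in all 9 libraries. Gabrd, Gabrr1, Gabrr2, Gabrq and Gabra3 had at most 15 counts, Grm2, Grm6, Grik1 and Gabra5 at most 24. Grm8 had 35, 14 and 58 counts in NSC 1, 3 and 5 and Gabre 33, 8 and 45, against at most 8 in any tumour library. Both were tested without NF1 2, where they were among the 27 lower subunits. Grm6, the receptor of retinal bipolar cells, had 24 counts in NF1 2 and at most 1 elsewhere, and 11% of its exon bases are shared with a gene on the other strand.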

How the data were processed

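The authors deposited 1 table of raw counts per gene for the 9 libraries. Per the submitters' processing notes, the tools were STAR 2.5.2a, HTSeq and DESeq2 1.8.2 and the builds GRCm38 and mm10. No source used here gives the annotation or the counting mode. Libraries were made with a NEBNext Ultra kit, per the labels' protocols. Genes were filtered by edgeR's filterByExpr (minimum count 10), scaled by TMM and tested by edgeR 4.0.16's quasi-likelihood F test on all 9 libraries, with Benjamini-Hochberg adjustment over 15696 genes (R 4.3.3). CPM per kb divides by exon length. The rule names every subunit that passed the filter and the 4 partner genes with the smallest adjusted p per comparison; some of these genes are not reported here, though they count in the totals. Alternatives were DESeq2 1.42.0, limma 3.58.1 (voom), other scalings and filters, a GC correction, and each library left out in turn. The fit was tested on simulated data. The subunits and lists were chosen with earlier results of these data known.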

Additional observations from a re-analysis of the deposited data

How the results depend on the processing

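Of the 1198 gene-level values recomputed under the alternatives, 1052 kept their direction and side of the threshold, 46 passed only under the alternative, 85 passed only in the reported fit and 15 changed sign. Leaving out 1 library gave 14 to 27 subunits lower and 0 to 1 higher in LTR than in NSC, 8 to 27 lower in NF1, 16 to 26 partner genes lower and 2 to 2 higher in LTR, 7 to 26 lower and 1 to 2 higher in NF1, and 0 to 1 lower in NF1 than in LTR. Of all genes, 1963 to 4364 were then lower in LTR than in NSC, and 1085 to 4002 in NF1. A filter of 10 CPM in 3 libraries, which tested 9 subunits, left 7 subunits lower in LTR and 5 in NF1, 8 partner genes lower in NF1, and 1 higher in LTR and 1 in NF1. Without NF1 2 and NSC 3 together, 26 subunits and 25 partner genes were lower in NF1, 1 subunit (Grin2a) was higher in LTR, and 1 partner gene was lower in NF1 than in LTR. With no filter 1 subunit (Grm7) was higher in LTR and 1 partner gene was lower in NF1 than in LTR. DESeq2 called 1 subunit higher in NF1 than in LTR, with 1 partner gene lower and 2 higher. Removing a GC trend without re-centring gave 5 partner genes higher in LTR and 5 in NF1, limma-voom 20 lower and 1 higher in NF1, and the 6 libraries compared alone 1 higher in NF1. Replicate numbers did not pair the samples, since same-numbered deviations correlated between -0.185 and 0.121. With a replicate block, 21 subunits were lower in LTR and 15 in NF1, and 8 partner genes were lower and 1 higher in NF1, and the NF1 call for Gabrb1 was among those lost (adjusted p = 0.0517). The sign changes all fell on subunits that had not passed. Leaving out 1 library gave ranges of -0.29 to 0.66 for Grik3 in NF1, -0.19 to 0.73 for Grin3b in NF1, -1.65 to 0.017 for Gabrg3 in LTR, -3.11 to 2.55 for Gabrg3 in NF1, -0.24 to 1.59 for Grin2a in LTR and -0.68 to 1.44 for Grin2a in NF1. Gabrg3 in NF1 was -1.93 and Grin3b in NF1 -0.51 without NF1 2 and NSC 3 together, and Gabrg3 in NF1 was -1.14 by limma-voom. With the replicate block, Gabrg3 in NF1 was -2.76, Grin2a in LTR -0.37 and Grin2a in NF1 -0.69. The cause of these changes was not tested. Depth limited which subunits were tested in the reported fit, since those under the filter on low counts were left out.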
